A study of Mus musculus with 12 samples.

Results

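The genes described here are Dlx1, Dlx2, Dlx5, Dlx6, the long non-coding RNA Dlx6os1, Sp8, Sp9, Gsx2 and Prokr2, factors of the ventral forebrain and of the neuroblasts that leave it. They were chosen by name, and all 9 were found among the 55357 genes counted and passed the filter on low counts in every comparison. Dlx1, Dlx2, Dlx5 and Dlx6 encode homeodomain transcription factors that drive the differentiation and migration of GABA neurons born in the ganglionic eminences, and Sp8 and Sp9 encode zinc finger factors of the same immature neurons. Gsx2 is a homeodomain factor of ventral progenitors, upstream of the Dlx genes, and Prokr2 is a receptor for prokineticin 2, a secreted protein that draws neuroblasts towards the olfactory bulb. After birth these genes are best known from neuroblasts of the subventricular zone and rostral migratory stream, and the Dlx genes are also kept on in part of the cortical interneurons, cells that migrated into the cortex from the ventral forebrain before birth.

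RNA was sequenced from mouse pups at postnatal day 5. The cKO animals (T3, T6 and T80) carried homozygous floxed Egfr with a Nestin-driven Cre recombinase (Nestin-EgfrF/F), which acts in neural progenitors and their offspring, and the controls (T4, T8 and T70) are labelled both EgfrF/+ and WT. From each animal a caudal and a rostral library were made from cortex together with the hippocampal formation, freed from the ventral forebrain, which gave 12 libraries in 4 groups of 3. The labels do not say whether the controls carried the recombinase, so loss of Egfr and presence of the recombinase cannot be told apart.

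Total counts ran from 43810241 to 87170063 per library. Egfr, the epidermal growth factor receptor and the gene deleted, stood at 5.81 to 14.6 counts scaled to library size (CPM) in the 6 cKO libraries and at 39.1 to 48.9 CPM in the 6 control libraries. Genes that define cerebral cortex were present in every library, with Neurod6 at 191 CPM or more and Tbr1 at 110 CPM or more. Among the cKO libraries, rostral T6 differed from the rest, with 8.18% of its counts on mitochondrial genes against 1.85% to 3.98% elsewhere, and with 950 CPM of astrocyte genes in sum against 1874 to 2883 CPM elsewhere. Choroid plexus genes summed to 402 CPM in rostral T3 of the cKO group, against 4.70 to 19.0 CPM in the other rostral libraries. Hippocampal genes summed to 816.5 CPM in rostral T3 of the cKO group, against 370 to 429 CPM in the other rostral libraries. Sex was taken from Xist counts, with more than 1000 per animal called female, also where it served as a covariate. By this call the cKO animals were 1 female and 2 males and the controls 2 females and 1 male. All levels are CPM scaled over the 12 libraries, folds are log2 with standard error (SE), and the threshold is an adjusted p of 0.05 in edgeR's quasi-likelihood test over all genes. P-values rest on 3 animals per genotype. In tissue of mixed cells, a change in the number of cells of a type and a change in RNA per cell cannot be told apart.

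By annotation, the Dlx genes lie as convergent pairs. On chromosome 2 of GRCm39, Dlx1 (ENSMUSG00000041911.4) spans bases 71358457 to 71364325 on the plus strand and Dlx2 (ENSMUSG00000023391.9) bases 71373752 to 71377098 on the minus strand. On chromosome 6, Dlx6 (ENSMUSG00000029754.14) spans bases 6863334 to 6868568 on the plus strand and Dlx5 (ENSMUSG00000029755.11) bases 6877805 to 6882085 on the minus strand. The span of Dlx6os1, bases 6820189 to 6871592 on the minus strand, runs across Dlx6 without sharing an exonic base with it. Sp9 lies on chromosome 2 at bases 73102269 to 73115050 (plus strand) and Prokr2 at bases 132179653 to 132227367 (minus strand), Gsx2 on chromosome 5 at bases 75236262 to 75238554 (plus strand), and Sp8 on chromosome 12 at bases 118810064 to 118816311 (plus strand). Dlx1 shares 335 exonic bases with the antisense gene Dlx1as, Dlx6 shares 104 with Dlx6os2 and Sp9 shares 270 with Cir1, all on opposite strands. Whether the counting used strand is not given in the sources, so reads from these stretches may be counted for either partner. The same holds for Dlx6os1, which shares 180 and 207 exonic bases with unnamed genes on the opposite strand. Dlx6os1 also shares 104 with an unnamed gene on its own strand, where strand cannot separate the reads. Its deposited value was fractional in 7 libraries.

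RefSeq promoter sequences on GRCm38.p6 were matched for 7 of the 9 genes. Shown here are the 250 bases before the start of Dlx2, Sp8 (the first of its 3 annotated starts) and Prokr2, because these genes passed the test between caudal and rostral control cortex; Dlx1 did so too. They come from chr2:71546755-71547004 on the minus strand, chr12:118846079-118846328 on the plus strand and chr2:132385448-132385697 on the minus strand. Each is written 5′ to 3′ along its gene, and capitals mark a GC box, the letters GGGCGG or their complement CCGCCC, the kind of site bound by Sp-family zinc finger proteins.
Dlx2: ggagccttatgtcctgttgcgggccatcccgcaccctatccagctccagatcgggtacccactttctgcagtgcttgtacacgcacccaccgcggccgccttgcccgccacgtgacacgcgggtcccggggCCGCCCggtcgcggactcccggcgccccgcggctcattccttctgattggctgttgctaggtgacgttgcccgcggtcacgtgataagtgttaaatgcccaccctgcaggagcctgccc
Sp8: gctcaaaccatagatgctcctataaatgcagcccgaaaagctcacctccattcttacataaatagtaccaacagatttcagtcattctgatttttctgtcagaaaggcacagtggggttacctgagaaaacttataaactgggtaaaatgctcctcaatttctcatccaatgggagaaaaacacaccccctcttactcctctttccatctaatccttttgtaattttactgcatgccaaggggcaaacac
Prokr2: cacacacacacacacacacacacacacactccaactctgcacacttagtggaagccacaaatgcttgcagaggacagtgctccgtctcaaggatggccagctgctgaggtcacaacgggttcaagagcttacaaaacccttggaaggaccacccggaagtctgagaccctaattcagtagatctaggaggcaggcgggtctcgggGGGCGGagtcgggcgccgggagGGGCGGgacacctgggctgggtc
The Dlx2 window held 1 GC box and the Prokr2 window 2, while these letters are not in the Sp8 window shown; of the windows before the other Sp8 starts, that of the second holds 1 GC box and that of the third 1 TAATTA core. The box was present on either strand in 32.7% of 32851 promoters of the same length. The homeodomain core TAATTA, its own complement, is in none of the 3 windows shown and was found in 4.84% of all promoters. The motifs do not overlap each other, and a match is a description of the letters, not of binding.

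Per exon length, Dlx1 was the most abundant of the genes, at 8.0 ± 1.74 CPM per kilobase over the 12 libraries (SD), followed by Dlx6os1 at 4.96 ± 1.22 and Dlx2 at 4.21 ± 0.98. Prokr2 stood at 3.20 ± 0.98 CPM per kilobase, Dlx5 at 3.06 ± 1.19, Dlx6 at 2.35 ± 0.63, Sp8 at 1.84 ± 0.67, Sp9 at 1.69 ± 0.41 and Gsx2 at 0.22 ± 0.11. Dlx1 lay above, and Gsx2 below, their neighbours in this order by more than either SD. Of the other neighbours, the means of Dlx2 and Prokr2 differed by more than either SD, and the rest by less than the larger SD of the pair. The remaining Dlx genes of the table were near the floor: Dlx3 had 0 to 6 counts per library, Dlx4 had 3 to 29 and Dlx4os had 0 to 11.

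The first question was whether these genes differed between cKO and control cortex. In both regions Dlx1 was higher in every cKO library than in every control library, and so were Prokr2 in rostral cortex and Sp8 and Dlx2 in caudal cortex. Dlx6 and Gsx2 had folds below 0 in both regions, with groups that overlapped. No member passed the threshold of edgeR after adjustment over all genes in any genotype comparison, against 0.0% of all genes called in rostral cortex, 0.0821% in caudal cortex and 0.179% on counts summed per animal. At an unadjusted p under 0.05 there were 2 members in rostral cortex (9.49% of all genes), 3 in caudal cortex (14.5%) and 3 on the sums (15.4%), all of them higher. DESeq2 called 1 member in rostral cortex (Prokr2), 2 in caudal cortex (Dlx1 and Sp8) and 2 on the sums (Dlx1 and Prokr2), among 394, 519 and 804 of all genes.

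**Figure D1:**
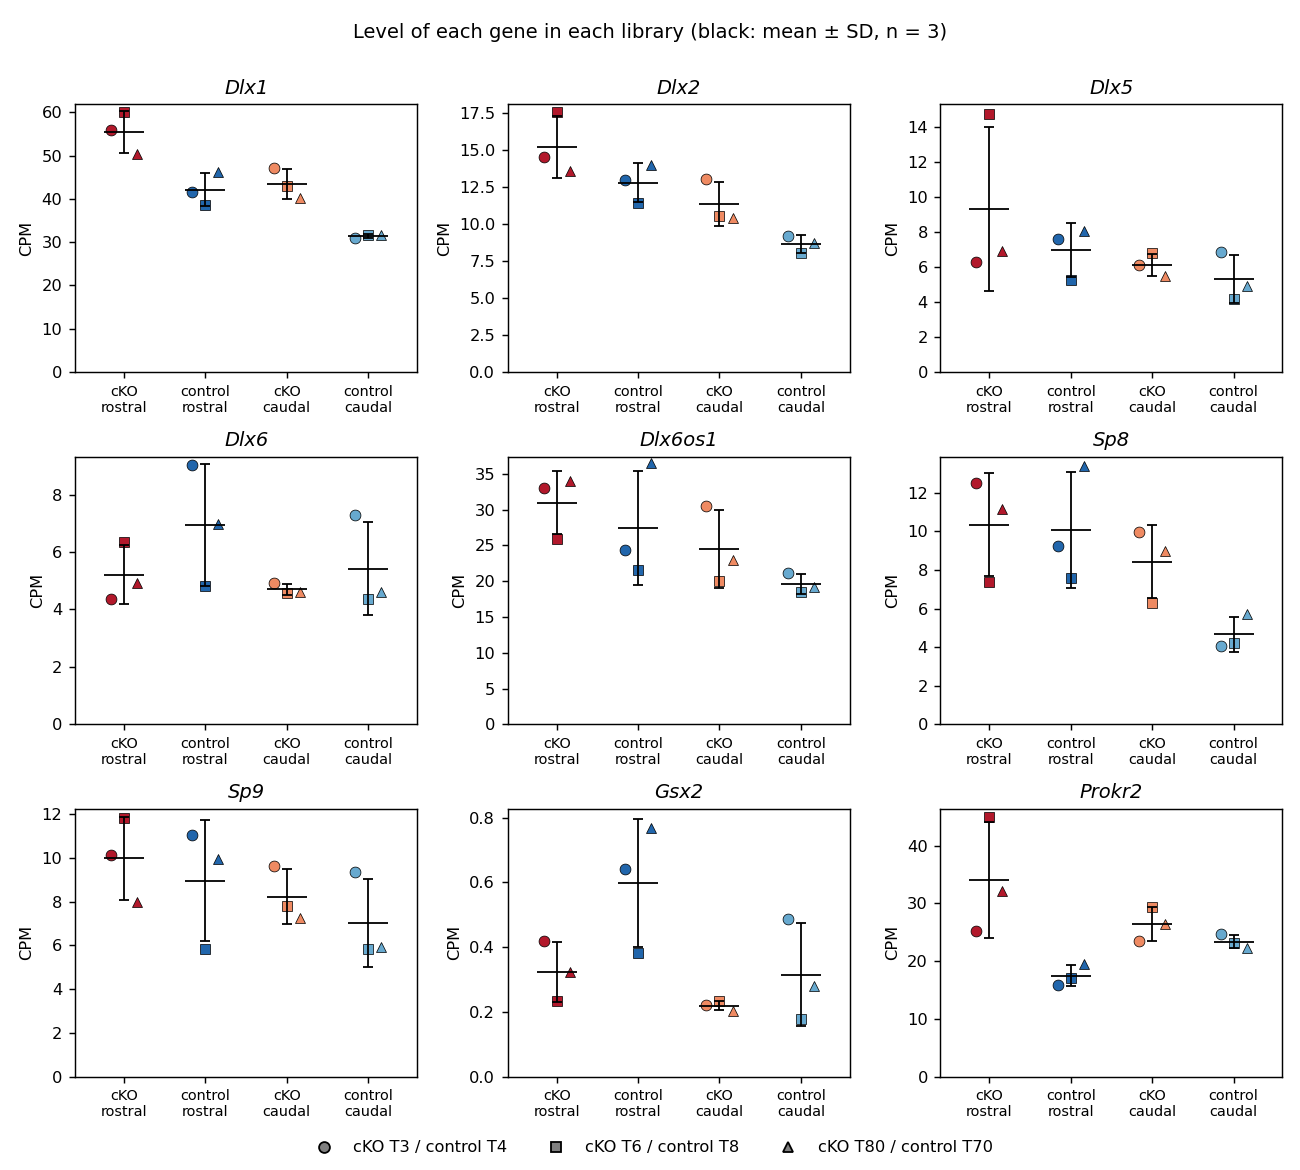
Level of each gene in CPM in all 12 libraries, cKO left of control for each region; colours mark the groups, symbols the animals, and black bars the mean and SD of 3 animals. Dlx1 in both regions, Prokr2 in rostral cortex, and Dlx2 and Sp8 in caudal cortex were higher in every cKO library than in every control library.

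Groups that did not overlap, with cKO higher, were seen for 2 of the 9 members in rostral cortex, against 9.76% of all genes. In caudal cortex they were seen for 3 of 9, against 11.3%, and on the sums for 3 of 9, against 12.5%. The median log2 fold of the 9 was 0.18 in rostral cortex (all genes 0.04), 0.23 in caudal cortex (all genes 0.00) and 0.33 on the sums (all genes 0.02). In each of the 3 comparisons 7 of 9 folds were above 0, as were 55.6% of all genes in rostral cortex, 50.9% in caudal cortex and 53.0% on the sums. The sums and the regions come from the same animals, so they are not separate evidence.

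Dlx1, which with Dlx2 commits ventral progenitors to GABA neurons, had 56.0, 60.1 and 50.5 CPM in the rostral cKO libraries of T3, T6 and T80, against 41.5, 38.6 and 46.2 CPM in the rostral control libraries of T4, T8 and T70. In caudal cortex it had 47.1, 43.0 and 40.3 CPM in cKO, against 30.9, 31.8 and 31.8 CPM in control. The cKO libraries lay above the controls without overlap in both regions, and the 3 caudal controls lay close together. The log2 fold was 0.41 in rostral cortex (SE 0.11, edgeR adjusted p = 0.371), 0.47 in caudal cortex (SE 0.08, adjusted p = 0.083) and 0.45 on the sums (SE 0.08, adjusted p = 0.098). DESeq2 gave adjusted p = 7.6e-05 in caudal cortex, and over all alternatives to the caudal test the adjusted p ran from 7.6e-05 to 0.424, with the fold between 0.41 and 0.52. Without T6, edgeR's adjusted p in caudal cortex was 0.0369.

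Dlx2 followed Dlx1 at a lower level. In caudal cortex it had 13.1, 10.6 and 10.4 CPM in cKO (T3, T6, T80) and 9.21, 8.03 and 8.73 CPM in control (T4, T8, T70), with no overlap. Its caudal log2 fold was 0.39 (SE 0.12, edgeR adjusted p = 0.244). In rostral cortex it had 14.5, 17.6 and 13.6 CPM in cKO and 12.99, 11.5 and 14.03 CPM in control, where 1 control library, T70, lay above 1 cKO library, T80. The rostral fold was 0.26 (SE 0.14, adjusted p = 0.556). Over the 12 libraries the log2 CPM of Dlx1 and Dlx2 had r = 0.94, a description over libraries that share animals and depth.

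Dlx5, the partner of Dlx6, had 6.27, 14.7 and 6.92 CPM in the rostral cKO libraries of T3, T6 and T80, against 7.60, 5.23 and 8.06 CPM in the rostral controls of T4, T8 and T70. In caudal cortex the cKO libraries had 6.08, 6.77 and 5.48 CPM and the control libraries 6.86, 4.18 and 4.93 CPM. The groups overlapped in both regions, and the rostral library of T6 alone was far above the rest. The rostral log2 fold of 0.42 (SE 0.35, edgeR adjusted p = 0.645) turned to -0.07 without T6, and the caudal fold was 0.20 (SE 0.19, adjusted p = 0.658).

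Dlx6, the other gene of that pair, had 4.36, 6.36 and 4.92 CPM in the rostral cKO libraries (T3, T6, T80), against 9.04, 4.803 and 6.98 CPM in the rostral control libraries (T4, T8, T70). In caudal cortex it had 4.93, 4.57 and 4.61 CPM in cKO and 7.28, 4.37 and 4.60 CPM in control. Control T4 was the highest library in both regions and control T8 lay within the range of cKO in rostral cortex and below it in caudal cortex. The log2 fold was -0.41 in rostral cortex (SE 0.26, edgeR adjusted p = 0.582) and -0.20 in caudal cortex (SE 0.20, adjusted p = 0.674), and the caudal fold was 0.07 without T4.

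Dlx6os1, also known as Evf2, is a non-coding RNA that acts on the Dlx5 and Dlx6 enhancers. It had 33.0, 26.0 and 34.0 CPM in rostral cKO (T3, T6, T80), against 24.4, 21.5 and 36.5 CPM in rostral control (T4, T8, T70). Its caudal levels were 30.5, 20.1 and 22.9 CPM in cKO and 21.2, 18.5 and 19.1 CPM in control. A single control library, that of T70 in rostral cortex and that of T4 in caudal cortex, kept each pair of groups overlapping. The log2 fold was 0.18 in rostral cortex (SE 0.21, edgeR adjusted p = 0.733) and 0.32 in caudal cortex (SE 0.15, adjusted p = 0.366).

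Sp8, which is needed for olfactory bulb interneurons and is kept in some cortical interneurons, had 9.97, 6.31 and 8.98 CPM in the caudal cKO libraries of T3, T6 and T80, against 4.05, 4.21 and 5.72 CPM in the caudal control libraries of T4, T8 and T70. In rostral cortex it had 12.5, 7.36 and 11.2 CPM in cKO and 9.26, 7.59 and 13.4 CPM in control. The caudal groups did not overlap, whereas the rostral groups spanned nearly the same range. The caudal log2 fold was 0.86 (SE 0.20, edgeR adjusted p = 0.171), with adjusted p = 0.0051 by DESeq2, 0.0364 in edgeR without T6, and 0.0051 to 0.600 over all alternatives. The rostral fold of 0.05 (SE 0.27, adjusted p = 0.948) had no stable sign: it was -0.01 without T4, -0.12 without T8, -0.12 without T3 and -0.01 without T80.

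Sp9, a close relative of Sp8 with a role in striatal neurons, had 10.1, 11.8 and 7.99 CPM in rostral cKO (T3, T6, T80), against 11.1, 5.81 and 9.96 CPM in rostral control (T4, T8, T70). The caudal values were 9.64, 7.80 and 7.24 CPM in cKO and 9.34, 5.84 and 5.91 CPM in control. The groups overlapped in both regions, with control T4 at the level of the cKO libraries. The log2 fold was 0.17 in rostral cortex (SE 0.26, edgeR adjusted p = 0.803; -0.06 without T8) and 0.23 in caudal cortex (SE 0.20, adjusted p = 0.645).

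Gsx2, the factor of ventral progenitors upstream of the Dlx genes, was close to the limit of detection, with 10 to 48 counts per library. In rostral cortex it had 0.42, 0.23 and 0.32 CPM in cKO (T3, T6, T80) and 0.64, 0.38 and 0.77 CPM in control (T4, T8, T70), and in caudal cortex 0.22, 0.23 and 0.20 CPM in cKO and 0.49, 0.18 and 0.28 CPM in control. In rostral cortex cKO T3 lay above control T8, so the groups overlapped, as they did in caudal cortex. The log2 fold was -0.87 in rostral cortex (SE 0.38, edgeR adjusted p = 0.524) and -0.54 in caudal cortex (SE 0.40, adjusted p = 0.571).

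Prokr2 had the largest rostral fold of the 9. It had 25.2, 44.9 and 32.2 CPM in the rostral cKO libraries of T3, T6 and T80, against 15.9, 17.0 and 19.5 CPM in the rostral controls of T4, T8 and T70. In caudal cortex it had 23.4, 29.4 and 26.4 CPM in cKO and 24.7, 23.2 and 22.3 CPM in control. The rostral groups were apart, with T6 the highest, and the caudal groups overlapped through cKO T3. The rostral log2 fold was 0.97 (SE 0.21, edgeR adjusted p = 0.318), and the caudal fold was 0.18 (SE 0.10, adjusted p = 0.431). Without T6 the rostral fold was 0.72 with an adjusted p of 0.0227 in edgeR, and DESeq2 gave an adjusted p of 0.0063 on all 6 libraries; over all alternatives the adjusted p ran from 0.0063 to 0.863. Leaving out T6 also raised the number of all genes called in rostral cortex to 1058. The part of the state of this library in the fold was not tested beyond the value without it.

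**Figure D2:**
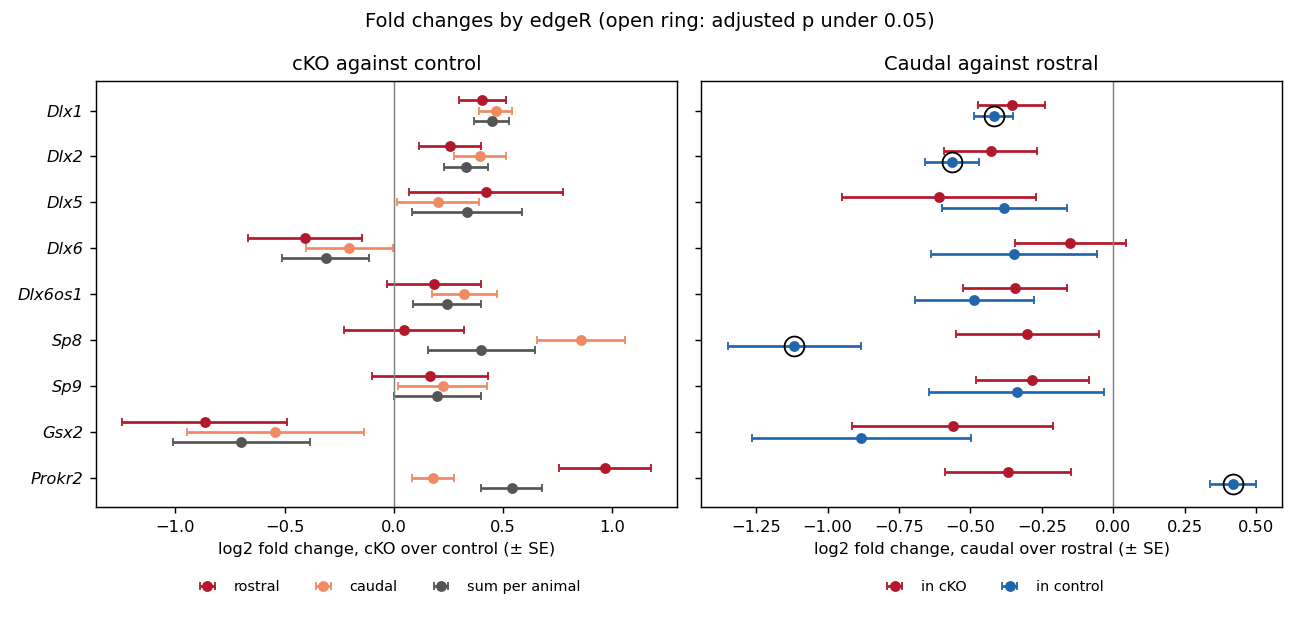
Log2 fold change and SE by edgeR for each gene. At the left cKO is set over control, in rostral cortex, caudal cortex and the sums of each animal; at the right caudal is set over rostral, in cKO and in control, and open rings mark Dlx1, Dlx2, Sp8 and Prokr2 in control, the 4 values with an adjusted p under 0.05.

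The second question was how the genes differed between caudal and rostral cortex. In control cortex 3 of the 9 members, Dlx1, Dlx2 and Sp8, were lower in caudal cortex and 1, Prokr2, was higher, each past the threshold, in a comparison in which 12.2% of all genes were called, 5.88% lower and 6.3% higher. The caudal groups lay below the rostral ones without overlap for 4 of 9 members (15.0% of all genes), Dlx6os1 being the fourth, and above them for 1 of 9 (16.4%). The median log2 fold of the 9, caudal over rostral, was -0.42, with 0.00 over all genes.

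Dlx1 averaged 31.5 ± 0.49 CPM in caudal and 42.1 ± 3.83 CPM in rostral control cortex (SD, n = 3 each), a log2 fold of -0.42 (SE 0.07, edgeR adjusted p = 0.0027). Dlx2 averaged 8.66 ± 0.60 CPM in caudal and 12.8 ± 1.30 CPM in rostral control cortex, a fold of -0.57 (SE 0.09, adjusted p = 0.0034). These calls were kept whichever control animal was left out. Sp8 showed the steepest difference, with 4.66 ± 0.93 CPM in caudal and 10.1 ± 2.99 CPM in rostral control cortex and a fold of -1.12 (SE 0.23, adjusted p = 0.0235). The Sp8 call was lost without T4 (fold -1.08, adjusted p = 0.124).

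Prokr2 ran against the others in control cortex, with 23.4 ± 1.19 CPM in caudal and 17.5 ± 1.85 CPM in rostral cortex, a log2 fold of 0.42 (SE 0.08, edgeR adjusted p = 0.0076). This call was lost without T4 (fold 0.31, adjusted p = 0.0748) and without T8 (fold 0.40, adjusted p = 0.0764). Dlx6os1 gave -0.49 (SE 0.21, adjusted p = 0.216), Dlx5 -0.38 (SE 0.22, adjusted p = 0.326), Dlx6 -0.35 (SE 0.29, adjusted p = 0.527), Sp9 -0.34 (SE 0.31, adjusted p = 0.564) and Gsx2 -0.88 (SE 0.38, adjusted p = 0.177). With the animal as a block, which uses the pairing of the regions, 5 members passed, Dlx5 being added (fold -0.39, adjusted p = 0.0474).

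In cKO cortex all 9 folds were below 0 (45.7% of all genes were above 0), and none passed the threshold, as was so for every gene tested in edgeR (0.0% called). Dlx1 averaged 43.5 ± 3.41 CPM in caudal and 55.5 ± 4.86 CPM in rostral cKO cortex, with no overlap, a log2 fold of -0.36 (SE 0.12, edgeR adjusted p = 0.9999). Dlx2 averaged 11.4 ± 1.48 CPM in caudal and 15.3 ± 2.11 CPM in rostral cKO cortex, also with no overlap, a fold of -0.43 (SE 0.16, adjusted p = 0.9999). These were the 2 members at an unadjusted p under 0.05 (1.66% of all genes) and the 2 with lower groups that did not overlap (3.11% of all genes). DESeq2 called 4 genes and no member. Sp8 averaged 8.42 ± 1.89 CPM in caudal and 10.4 ± 2.68 CPM in rostral cKO cortex (fold -0.30, SE 0.25), and Prokr2 26.4 ± 2.98 CPM in caudal and 34.1 ± 9.99 CPM in rostral cKO cortex (fold -0.37, SE 0.22), both with overlapping groups. Dlx6 had the smallest cKO fold, -0.15 (SE 0.19), and it was 0.04 without T6.

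Markers of hippocampus, which was part of the dissected tissue, and of choroid plexus and striatum differed between the regions. In control cortex 11 of 12 hippocampal genes had folds above 0 in caudal over rostral, with 7 called higher, and their summed level was 622 to 751 CPM in caudal and 370 to 420 CPM in the rostral libraries. Choroid plexus genes had 10 of 10 folds above 0 with 6 called higher, and striatal neuron genes had 10 of 16 below 0 with 2 called lower. Of all genes, 6.3% were called higher and 5.88% lower in this comparison. In cKO the hippocampal genes summed to 816.5 CPM in rostral T3, above the 701 CPM of its caudal library. In T6 and T80 they summed to 420 and 429 CPM in the rostral and 1136 and 813 CPM in the caudal libraries. The part of these tissues, and of the rostral T3 library, in the regional differences of the 9 genes was not tested.

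The third question was whether the difference between the regions depended on genotype. Within each animal, Prokr2 was lower in the caudal library of all 3 cKO animals, with log2 differences of -0.10 (T3), -0.61 (T6) and -0.29 (T80), and higher in all 3 controls, with 0.63 (T4), 0.45 (T8) and 0.19 (T70). Of all 21599 genes, 260 (1.2%) had this pattern and 252 (1.17%) its opposite. The difference of the means was -0.76, and an exact two-sided permutation test over the 6 animals gave p = 0.1, the smallest it can give. Sp8 was lower in caudal cortex in all 6 animals, with -0.33, -0.22 and -0.31 in cKO T3, T6 and T80, against -1.18, -0.84 and -1.22 in control T4, T8 and T70, without overlap and with the same exact permutation p = 0.1. Dlx1, Dlx2, Dlx5 and Dlx6os1 were lower in caudal cortex in all 6 animals as well, with overlapping ranges. The T3 differences rest on the rostral library with the highest hippocampal and choroid plexus sums of the rostral libraries. The part of this in the differences was not tested.

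**Figure D3:**
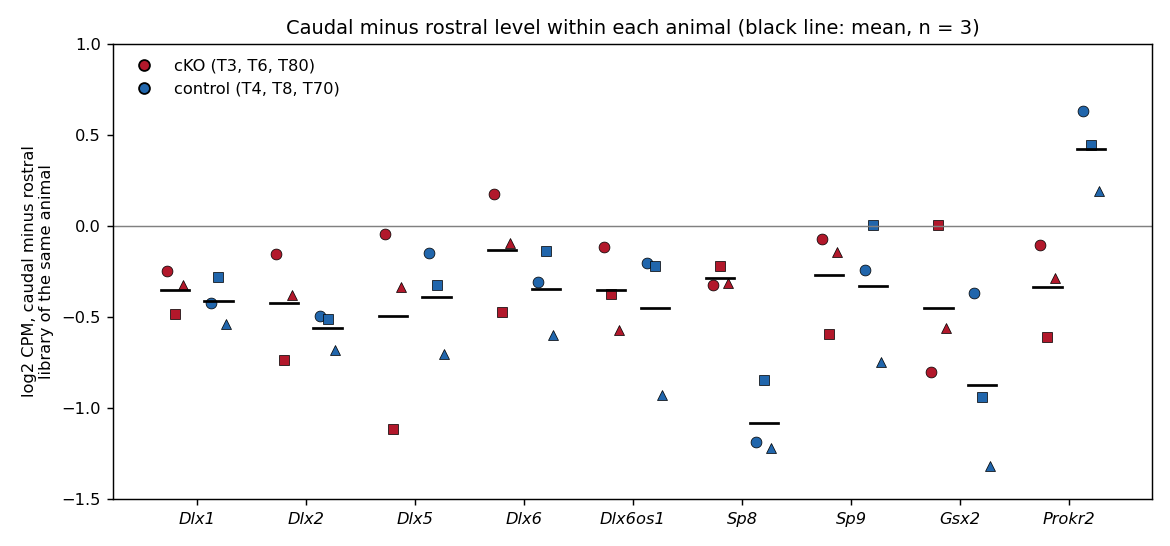
Log2 CPM of the caudal minus the rostral library of the same animal, cKO left of control for each gene; black lines are means of 3 animals. Prokr2 lay below 0 in the 3 cKO animals and above 0 in the 3 controls, and Sp8 lay nearer to 0 in the 3 cKO animals than in the controls.

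In the fit over 12 libraries, the interaction (the cKO over control fold in caudal cortex minus that in rostral cortex) was -0.79 for Prokr2 (SE 0.25, edgeR adjusted p = 0.9997) and 0.82 for Sp8 (SE 0.37, adjusted p = 0.9997). These were the 2 members at an unadjusted p under 0.05, against 3.55% of all genes. No member and no other gene passed after adjustment (0.0% called), and DESeq2 called 11 genes and no member. For Prokr2 the interaction was -0.62 without T6 (adjusted p = 0.0800). For the other 7 genes it lay between -0.22 for Dlx5 (SE 0.44) and 0.34 for Gsx2 (SE 0.57).

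The genes of each pair could be compared within a library, where scaling cancels. Of 6 ratios per exon length, chosen after the values were seen, Dlx5 over Dlx6 was 1.51, 2.43 and 1.48 in rostral cKO (T3, T6, T80) and 1.29, 1.56 and 1.25 in caudal cKO, against 0.88, 1.14 and 1.21 in rostral control (T4, T8, T70) and 0.99, 1.003 and 1.12 in caudal control. Every cKO library lay above every control library, although neither gene separated the groups by itself. Per animal the ratio averaged 1.62 ± 0.40 in cKO and 1.06 ± 0.12 in control (SD, n = 3 each), with an exact two-sided permutation p = 0.1, the smallest that 3 against 3 can give, before any adjustment over the 6 ratios. Per-animal ratios used the counts of both libraries added without scaling, so the deeper library weighed more.

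Dlx1 over Dlx6 per exon length was 3.85 to 5.65 in the 6 cKO libraries and 1.87 to 3.54 in the 6 control libraries, again without overlap, and per animal it averaged 4.46 ± 0.52 in cKO and 2.76 ± 0.74 in control (exact permutation p = 0.1). Dlx1 over Dlx2 differed less, at 1.97 ± 0.04 per animal in cKO and 1.82 ± 0.09 in control (exact permutation p = 0.1). Dlx1 over its antisense Dlx1as was 1.496 ± 0.17 per animal in cKO and 1.15 ± 0.01 in control (exact permutation p = 0.1). In control this ratio averaged 1.49 in rostral and 0.91 in caudal libraries, so the per-animal value also reflects the depth of each library. In rostral cortex the cKO libraries had ratios of 1.58 (T3), 2.52 (T6) and 1.44 (T80), and the control libraries 1.54 (T4), 1.45 (T8) and 1.49 (T70), so the genotypes overlapped there and T6 was the highest. Reads of the 335 shared exonic bases may enter either gene. Dlx1as itself had log2 folds, cKO over control, of 0.17 in rostral cortex (SE 0.19, edgeR adjusted p = 0.722) and 0.06 in caudal cortex (SE 0.11, adjusted p = 0.843). Dlx6os1 over Dlx6 (2.62 ± 0.65 in cKO and 1.83 ± 0.48 in control, exact permutation p = 0.3) and Sp8 over Sp9 (1.17 ± 0.36 in cKO and 1.04 ± 0.33 in control, exact permutation p = 0.6) overlapped between the genotypes.

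**Figure D4:**
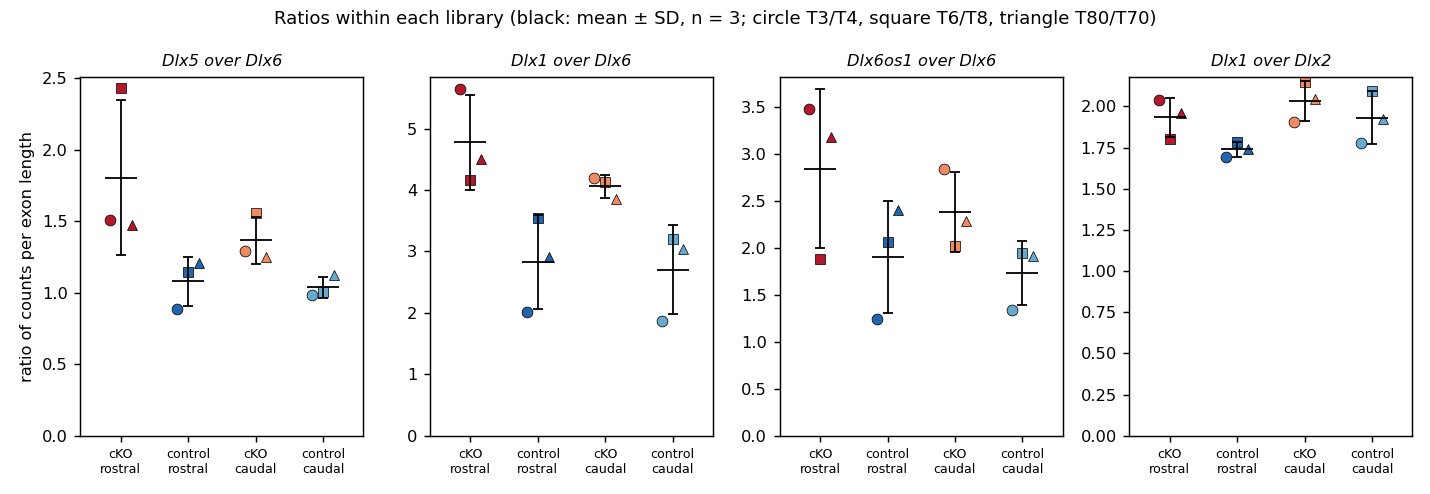
Ratios of counts per exon length within each of the 12 libraries, cKO left of control for each region; black bars are the mean and SD of 3 animals. Dlx5 over Dlx6 and Dlx1 over Dlx6 were higher in all 6 cKO libraries than in all 6 control libraries, while Dlx6os1 over Dlx6 and Dlx1 over Dlx2 overlapped.

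Striatal tissue lies next to the dissected cortex and expresses several of these genes. The 16 striatal neuron genes had folds below 0, cKO over control, on the sums in all 16 cases, none past the threshold, with a median of -0.86 against 0.02 over all genes. Their summed level was 195 to 232 CPM in rostral cKO and 200 to 275 CPM in caudal cKO. In control it was 541, 232 and 398 CPM in the rostral libraries of T4, T8 and T70, and 383, 202 and 207 CPM in their caudal libraries. Ppp1r1b, the striatal phosphoprotein DARPP-32, had a rostral log2 fold of -2.11 (SE 0.43, edgeR adjusted p = 0.312).

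The 3 control libraries with most striatal RNA, rostral T4, rostral T70 and caudal T4, were also the 3 highest of all 12 in Dlx6, and they were the 3 highest in Gsx2. Over 12 libraries r with the mean log2 level of the striatal genes was 0.83 for Dlx6 and 0.72 for Gsx2, and over the other 9 libraries, which span a narrower range of striatal level, it was -0.39 and -0.36. Dlx1 had r = -0.30 over 12 libraries and -0.28 over those 9. These values are descriptions, since libraries of 1 animal are not independent. The part of striatal RNA in the Dlx6 and Gsx2 folds was not tested. The 10 olfactory bulb genes summed to 299.9 to 342 CPM in rostral cKO libraries and 356 to 391 CPM in rostral control libraries. In caudal cortex they summed to 269.9 to 300.1 CPM in cKO libraries and 313 to 339 CPM in control libraries, without overlap within either region. These sums came mostly from Ptpro (131 to 227 CPM), Slc17a6 (44 to 87 CPM) and Synpr (29 to 81 CPM). Th, Tbx21, Nmb and Doc2g were near the floor, reaching at most 0.62, 0.42, 0.83 and 1.01 CPM. The sums are therefore no measure of olfactory bulb tissue. On the sums per animal 7 of the 10 folds, cKO over control, were below 0, with none called by edgeR and 3 lower at an unadjusted p under 0.05, and the median was -0.18. The mean log2 level of these genes had r = 0.87 with Dlx6 and 0.72 with Gsx2 over the 12 libraries. Their part in the Dlx6 and Gsx2 folds was not tested.

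**Figure D5:**
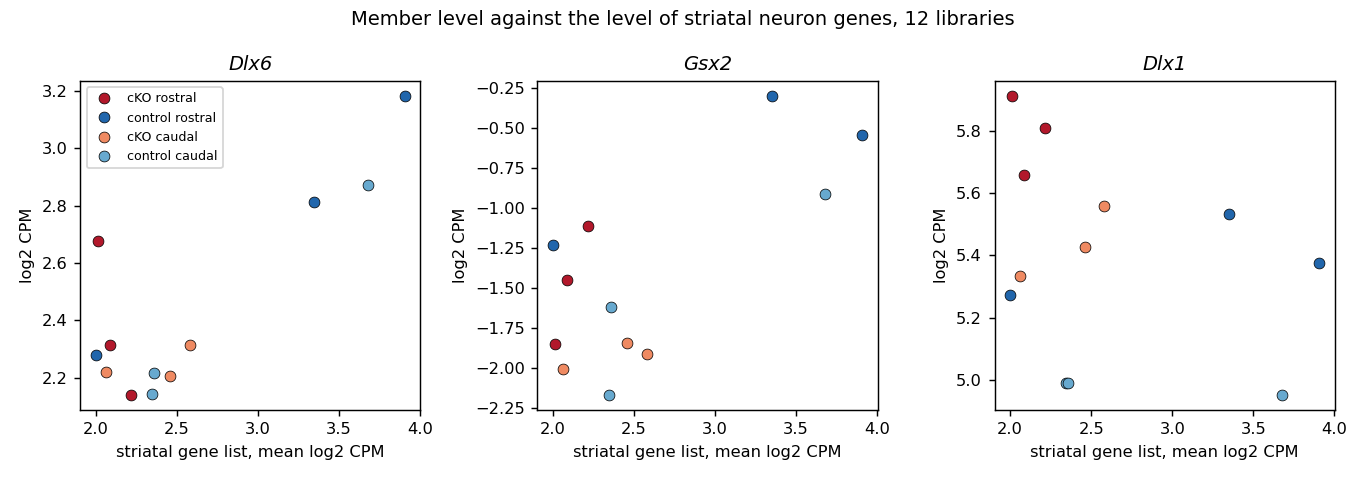
Level (log2 CPM) of Dlx6, Gsx2 and Dlx1 against the mean log2 CPM of 16 striatal neuron genes, with 1 point for each of the 12 libraries and colours for the groups. Control rostral T4, rostral T70 and caudal T4 lie apart at the right and are the highest in Dlx6 and Gsx2, and not in Dlx1.

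Lists of neuroblast, GABA and interneuron genes were read beside the members. Of 21 migrating neuroblast genes, 18 had folds above 0, cKO over control, in rostral cortex, 17 in caudal cortex and 18 on the sums, with medians of 0.27, 0.10 and 0.21, and none passed the threshold. Some of them stood far above the members, such as Dcx at 1260 to 2115 CPM against 8.03 to 17.6 CPM for Dlx2. Whether their RNA came from cells of the members' lineage was not tested. Prok2, the ligand of Prokr2, had a rostral log2 fold of 0.92 (SE 0.30, edgeR adjusted p = 0.446), and Prokr1, the other prokineticin receptor, 0.80 (SE 0.19, adjusted p = 0.347). Both were low, with rostral means in cKO and control of 1.22 and 0.65 CPM for Prok2 and 1.86 and 1.07 CPM for Prokr1. Their cKO libraries lay above the controls without overlap, as did 9.76% of all genes in rostral cortex. Erbb4, a neuregulin receptor of migrating interneurons, had 0.49 (SE 0.09, adjusted p = 0.310) in rostral cortex. In caudal cortex the neuronal factors Sox4 and Sox11 had 0.35 (SE 0.06, adjusted p = 0.104) and 0.37 (SE 0.08, adjusted p = 0.139). Tubb3, a neuronal tubulin, went the other way, at -0.50 in rostral cortex (SE 0.16, adjusted p = 0.440).

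The 15 tested genes for GABA synthesis and Dlx-dependent factors had medians of 0.14 in rostral cortex, 0.02 in caudal cortex and 0.11 on the sums, cKO over control, with no call. Gad1, which makes GABA, had a rostral log2 fold of 0.46 (SE 0.18, edgeR adjusted p = 0.505), whereas Slc32a1, the vesicular GABA transporter, had -0.41 in caudal cortex (SE 0.16, adjusted p = 0.309). Of 18 cortical interneuron genes, 13 had folds above 0 in rostral cortex, 10 in caudal cortex and 12 on the sums, with no call. The nearest was Prox1, a homeobox factor of interneurons and of dentate granule cells, at 0.94 on the sums (SE 0.13, adjusted p = 0.0514).

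Of 9 ventral progenitor factors, 1 fell in cKO on the sums, Olig2, a bHLH factor that also marks oligodendrocyte precursors, by a log2 fold of -0.59 (SE 0.07, edgeR adjusted p = 0.0381). Nkx2-1, a factor of the medial ganglionic eminence, had 1.08 in rostral cortex (SE 0.30, adjusted p = 0.394), at low means of 1.25 CPM in cKO and 0.59 CPM in control. Ptch1 went the other way there, at -0.67 (SE 0.15, edgeR adjusted p = 0.338). Of the 9 ventral folds, 4 were above 0 and 5 below, both in rostral cortex (median -0.29) and on the sums (median -0.08). On the dorsal side, 12 of 14 dorsal forebrain factors had folds above 0 on the sums and 1 rose, Eomes, a T-box factor of intermediate progenitors, by 1.75 (SE 0.23, adjusted p = 0.0491). The 14 cell division genes had no call, with medians of -0.14 in rostral cortex, 0.23 in caudal cortex and 0.04 on the sums. Oligodendrocyte precursor genes were lower on the sums in 11 of 12 folds, with 2 called lower. Astrocyte genes had folds below 0 on the sums in 10 of 12 cases, with 2 called lower and a median of -0.48. Their mean log2 level had r of -0.66 with Dlx1, -0.67 with Dlx2, -0.74 with Dlx5 and -0.69 with Prokr2 over the 12 libraries. The rostral cKO library of T6 had the lowest summed astrocyte level of the 12, 950 CPM, and the highest level of each of these members. The r values without that library were not computed. For all genes on the sums, 53.0% of folds were above 0, 0.179% were called by edgeR and 15.4% had an unadjusted p under 0.05. Choroid plexus genes had folds above 0 on the sums in 10 of 10 cases, with none called by edgeR and 7 at an unadjusted p under 0.05. The part of these cell types in the members' folds was not tested.

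The same lists were read between caudal and rostral control cortex, where 6.3% of all genes were called higher and 5.88% lower in caudal cortex. Of the 21 neuroblast genes, 4 were called higher and 2 lower in caudal cortex, with Nrp2, a semaphorin receptor, at 2.08 (SE 0.18, edgeR adjusted p = 0.0018). Of the 18 interneuron genes tested, 7 were called higher and 1 lower, with Calb2, which encodes calretinin, at 1.82 (SE 0.12, adjusted p = 6e-05). Of the 16 GABA and Dlx-dependent genes 2 were called higher and 2 lower. Meis2 and Pou3f4, homeobox and POU factors, were the lower ones, at -0.81 (SE 0.14, adjusted p = 0.0169) and -0.74 (SE 0.15, adjusted p = 0.0128), and Lhx6, a LIM factor of medial eminence interneurons, was higher at 0.24 (SE 0.05, adjusted p = 0.0122).

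The members did not form a single profile over the 12 libraries. Dlx6os1 and Sp8 had r = 0.88 and Dlx5 and Sp9 had r = 0.80, while Dlx5 and Dlx6 had r = 0.56 and Dlx1 and Dlx6 had r = 0.02. Among 15985 genes with a mean of 1 CPM or more, the non-members most like the mean of Dlx1, Dlx2, Dlx5 and Dlx6 included S100pbp (r = 0.93), Zfp429 (r = 0.93), Tbl1x (r = 0.91), Jarid2 (r = 0.91), Gm38124 (r = 0.90), Ralgapa1 (r = 0.90) and Dhdh (r = 0.90). Without the rostral cKO library of T6 these were 0.81 to 0.88. Sp8 was most like Cdca7 (r = 0.96, and 0.97 without that library), followed by Ttc14, Trmt13, Adamts4 and Ttll4 with r of 0.93 to 0.86. These are descriptions over libraries that share animals, and the highest of many genes are high in part by selection.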

How the data were processed

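Expected counts per gene were deposited by the authors, made with STAR 2.7.8a and featureCounts 2.0.3 on GRCm39 per the submitters' processing notes. Annotation release, strand setting and treatment of multiply aligned reads are not given in the sources. Fractional values made up 9.69% to 14.3% of each library, so the values were rounded to whole numbers, and the count tests chosen for whole counts were used on them. Total counts were 43810241 to 87170063 per library, and Gsx2 with 10 to 48 counts is the least precise of the genes.

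Each comparison was fitted on all genes of its own libraries with edgeR 4.0.16 in R 4.3.3: filterByExpr, TMM scaling, the robust quasi-likelihood F test and Benjamini-Hochberg adjustment at 0.05. The SE is the log2 fold divided by the square root of F. CPM per library was scaled by TMM over all 12 libraries, with a prior count of 3 on the log2 scale. Equal T numbers mark the libraries of 1 animal, and their deviations from the group means had r of 0.27, 0.25 and 0.33 in control T4, T8 and T70 and 0.03, -0.00 and 0.46 in cKO T3, T6 and T80. Alternatives were DESeq2 1.42.0, voom of limma 3.58.1 with library weights, RLE and upper-quartile scaling, no filter or 1 CPM in 3 libraries, each animal left out, 1 fit over 12 libraries, sex as a covariate and the animal as a block.

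Named are all 9 genes, Egfr, the other Dlx genes, up to 4 genes with the smallest p in a list and comparison, and the genes most like the Dlx mean and Sp8. The members and the 16 lists were chosen with earlier results of these data known, and the ratios after the values were seen. A few genes that this rule names are not reported here.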

Additional observations from a re-analysis of the deposited data

Results flagged for a closer look

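Prokr2 was singled out because caudal and rostral cortex differed in opposite directions in the 2 genotypes. The caudal minus rostral log2 difference was below 0 in all 3 cKO animals and above 0 in all 3 controls, and the cKO mean minus the control mean was -0.756. The exact two-sided permutation test over 6 animals gave p = 0.1, the smallest it can give, and edgeR's interaction did not pass the threshold (-0.79, adjusted p = 0.9997). The highest value behind it, 44.9 CPM, was that of the rostral cKO library of T6, which also had 8.18% of its counts on mitochondrial genes, and the part of that library's state in the difference was not tested beyond the value without it (-0.62, adjusted p = 0.0800).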

How the results depend on the processing

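Of 660 values of single genes under alternatives, 618 kept their direction and side of the threshold, 23 passed it newly, 3 no longer passed and 16 changed sign. In rostral cortex the count of members called, 0, became 1 with DESeq2 (Prokr2), 2 with voom weights (Dlx1, Prokr2) and 1 in the fit over 12 libraries (Prokr2), and 0 to 1 when animals were left out. In caudal cortex 0 became 2 with DESeq2, without the filter and with voom weights (Dlx1 and Sp8 each time), and 0 to 2 over left-out animals. On the sums 0 became 2 with DESeq2 and without the filter (Dlx1, Prokr2), 1 with voom weights (Dlx1), and 0 to 2 over left-out animals. All of the left-out gains came without T6. These alternatives also called more of all genes: 394, 519 and 804 with DESeq2 in rostral cortex, caudal cortex and the sums, against 0, 17 and 41 in edgeR. In rostral cortex voom weights called 920 of 20599 genes, the fit over 12 libraries 101 of 21599 and the fit without T6 1058 of 21118. The totals of the other alternatives in caudal cortex and on the sums are not reported here. Between the regions of control cortex the count of 4 was 2 to 4 over left-out animals, 5 with the animal as a block (pairing) and 6 without the filter (Dlx5, Gsx2 added); the block changed no other call. In cKO and for the interaction the count was 0 in all alternatives.

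Signs changed in 16 cases. In rostral cKO over control Sp8 was -0.011 without T4, -0.121 without T8, -0.117 without T3 and -0.0137 without T80, Sp9 -0.062 without T8, and Dlx5 -0.0697 without T6; over left-out animals these folds reached 0.300 for Sp8, 0.345 for Sp9 and 0.637 for Dlx5. In caudal cortex Dlx6 was 0.0658 without T4 and otherwise down to -0.340. Between the regions of cKO, Dlx6 was 0.000332 with voom weights and 0.0417 without T6, and down to -0.290 over left-out animals. In the interaction Dlx5 was 0.155 with voom weights and 0.199 without T6, Dlx6os1 -0.112 with voom weights and -0.130 without T70, Dlx1 -0.000561 and Sp9 -0.131 without T70, and Sp9 -0.0481 without T3; the other ends over left-out animals were -0.431 for Dlx5, 0.282 for Dlx6os1, 0.137 for Dlx1 and 0.239 for Sp9. The cause of these changes was not tested. Depth limits Gsx2 most, at 10 to 48 counts per library.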

Other observations

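Likeness was also taken for Dlx1 and Prokr2, a choice made after the values were seen. Over 12 libraries Dlx1 was most like Ccnl1, which encodes the splicing-linked cyclin L1 (r = 0.99, and 0.98 without the rostral cKO library of T6), followed by Usp48, a ubiquitin protease (r = 0.95), and further down by Nktr, a nuclear cyclophilin (r = 0.94). Prokr2 was most like Pvr, the poliovirus receptor (r = 0.96, and 0.93 without that library), followed by Marchf1, a ubiquitin ligase (r = 0.95), and further down by Bmp3, a secreted BMP-family protein (r = 0.93, and 0.86 without it). The mean level of 21 migrating neuroblast genes had r = 0.81 with Prokr2, -0.76 with Gsx2 and 0.01 with Dlx2 over the same libraries, which share animals. Other lists had values of like size: Prokr2 had r = -0.82 with oligodendrocyte precursor genes and -0.69 with astrocyte genes, and Gsx2 had -0.76 with dorsal forebrain factors. The rostral cKO library of T6 was the highest in Prokr2 and the lowest in astrocyte genes, and the list values without it were not computed.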
